A study of Caenorhabditis elegans with 5 samples.

Results

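The 39 genes described here encode enzymes of glycolysis, of the tricarboxylic acid (TCA) cycle and of the glyoxylate cycle of the nematode Caenorhabditis elegans. They were chosen by symbol from 45251 genes in the count tables and comprise 17 genes of glycolysis, 1 lactate dehydrogenase gene, 3 genes of the pyruvate dehydrogenase complex, 17 genes of the TCA cycle and icl-1 of the glyoxylate cycle, with succinate dehydrogenase left out. All 39 had 82 or more reads in every library and were among the 14238 genes tested, and exons of 14 overlap those of another annotated gene on either strand. RNA came from whole worms of the N2 strain, wild-type in genotype, at a stage given as L4 (the last larval stage) to adult, kept at 20 °C with Escherichia coli OP50 as food. Worms spent 24 h on plates made with bisphenol TMC (BPTMC), a bisphenol, in 3 libraries, or with dimethyl sulfoxide (DMSO) in 2 libraries; the solvent serves here as control. The labels give a final concentration of 1 mM for the plates of both groups. They do not tie replicates to separate cultures, so the p-values rest on a spread among libraries that may be technical only.

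Glycolysis splits glucose to pyruvate in the cytosol. The pyruvate dehydrogenase complex turns pyruvate into acetyl-CoA in mitochondria, and the TCA cycle oxidises acetyl-CoA to carbon dioxide while it loads the electron carriers that feed the respiratory chain. The glyoxylate cycle branches off at isocitrate and skips the steps that release carbon dioxide, so that carbon from fat can be used to make sugar; nematodes have it and mammals do not. In C. elegans a single protein, ICL-1, carries both of its enzymes, isocitrate lyase and malate synthase.

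The libraries held 16531114 to 24362712 counts, and the 39 genes together took 0.227% to 0.473% of them. Levels are counts scaled to library size and normalised by TMM (CPM). The first principal component of all tested genes, with 54.9% of the variance, ran from DMSO replicate 2 (-87.9) to BPTMC replicate 1 (108), and placed DMSO replicate 1 (-19.1) between BPTMC replicates 2 (-27.4) and 3 (26.3), so it did not separate the groups. Genes for major sperm proteins followed the same order: their mean log2 level around each gene's own mean was -0.30 and -1.54 for the DMSO libraries and 1.84, -1.17 and 1.17 for the BPTMC libraries, in the order of replicate numbers used throughout. Of 31 such genes 29 were tested and all 29 had a log2 fold change above 0, with a summed level of 42.0 to 97.9 CPM in DMSO and 55.5 to 447 CPM with BPTMC; msp-74 had no read in at least 1 library. The median log2 fold change was 0.34 over 8 body wall muscle markers, 0.51 over 7 intestinal, 0.36 over 6 neuronal, 0.61 over 4 pharyngeal, 1.21 over 5 hypodermal and -0.49 over 11 yolk and oocyte markers. Of these 41 markers, rol-6 and bli-1 of the hypodermis had no read in at least 1 library. The log2 fold change lay above 0 for 4 of the 5 hypodermal and 3 of the 11 yolk and oocyte markers. The summed hypodermal level was 618 and 530 CPM with DMSO against 390, 735 and 338 CPM with BPTMC. The summed yolk and oocyte level was 14778 and 18655 CPM with DMSO against 26335, 15795 and 17402 CPM with BPTMC. Both sums overlapped between the groups, so these medians do not show a higher or lower total. In RNA of whole worms, fewer cells of a type and less RNA per cell cannot be told apart.

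Among the 39 genes icl-1 showed the largest difference, a level 2.16-fold higher with BPTMC that exceeded the spread within either group, but it did not pass the test over all genes. The edgeR quasi-likelihood test, with p adjusted over 14238 genes, called 0 of the 39 at an adjusted p under 0.05, beside 0.105% of all tested genes called higher and 0.00% lower. DESeq2 also called 0 members, beside 1.67% of tested genes higher and 0.0211% lower, and limma-voom called 0, beside 0.00702% higher and 0.00% lower. Before adjustment, 1 of the 39 (icl-1, higher with BPTMC) had an edgeR p under 0.05, beside 7.40% of all tested genes, of which 997 were higher and 57 lower. The log2 fold change lay below 0 for 29 of the 39 members, or 74.4%, beside 54.5% of all tested genes. The median over the 39 was -0.22, beside -0.09 over all tested genes. Leaving out DMSO replicate 2 gave a median of 0.04 for the 39 beside 0.12 for all tested genes, and leaving out BPTMC replicate 1 gave 0.01 beside 0.02. Leaving out both gave 0.24 beside 0.08, in a setting chosen after the values were seen. DMSO replicate 2 was the highest library for 19 of the 39 and BPTMC replicate 1 the lowest for 19. A rise of the median thus follows from the choice and is not a test. Wherever this pair is left out below, the setting is the same one, chosen after the values were seen. A missed threshold does not show that levels were equal: the SEs of the log2 fold changes ran from 0.34 to 0.58.

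**Figure D1:**
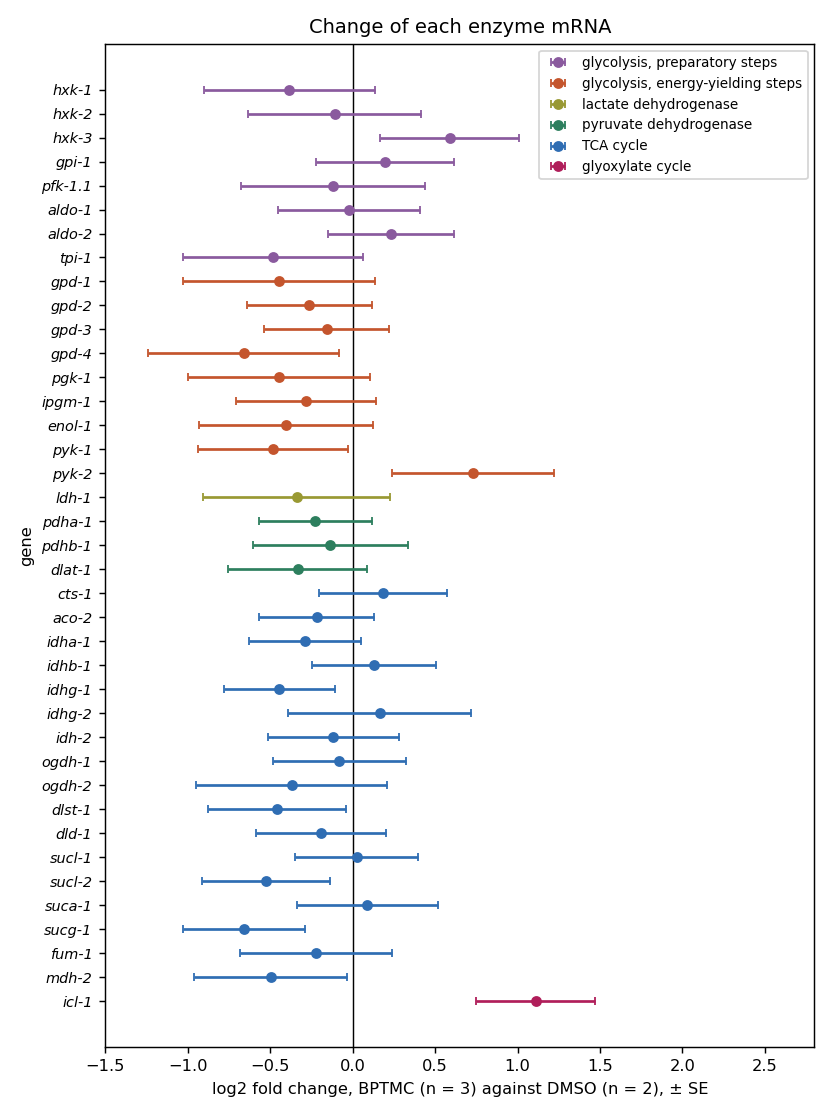
Log2 fold change of each of the 39 genes, BPTMC (n = 3) against DMSO (n = 2), with bars of 1 approximate standard error (SE) from the edgeR fit and colours for the steps of the pathways. The point for icl-1 lies at 1.11 and the other 38 between -0.66 and 0.73, with SEs of 0.34 to 0.58 over all 39.

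The glyoxylate cycle gene icl-1 (WBGene00001564) lies on the minus strand of chromosome V from 724332 to 728004 (WBcel235, Ensembl annotation), and its exons overlap no other annotated gene. It stood at 50.5 and 62.0 CPM with DMSO against 115.3, 109 and 140.2 CPM with BPTMC. Every BPTMC library lay above both DMSO libraries, and the 3 BPTMC libraries lay within 1.29-fold of each other. The group means were 56.3 ± 8.19 CPM (SD, n = 2) for DMSO and 121 ± 16.5 CPM (SD, n = 3) for BPTMC. The log2 fold change was 1.11 ± 0.36 (SE), with an edgeR unadjusted p = 0.0146 and adjusted p = 0.533. By p the gene ranked 387 of 14238. Its log2 fold change ran from 0.96 to 1.30 over all alternatives, and the unadjusted p was 0.166 without DMSO replicate 1 and 0.0632 without DMSO replicate 2. With DMSO replicate 2 and BPTMC replicate 1 both left out, the log2 fold change was 1.30. The mean log2 level of the intestinal markers was -0.13 and -0.50 for DMSO and 0.61, -0.05 and 0.07 for BPTMC, and that of the hypodermal markers -0.04 and -0.96 for DMSO and 1.21, -0.19 and -0.02 for BPTMC. The part of these and of the sperm genes in the level of icl-1 was not tested.

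**Figure D2:**
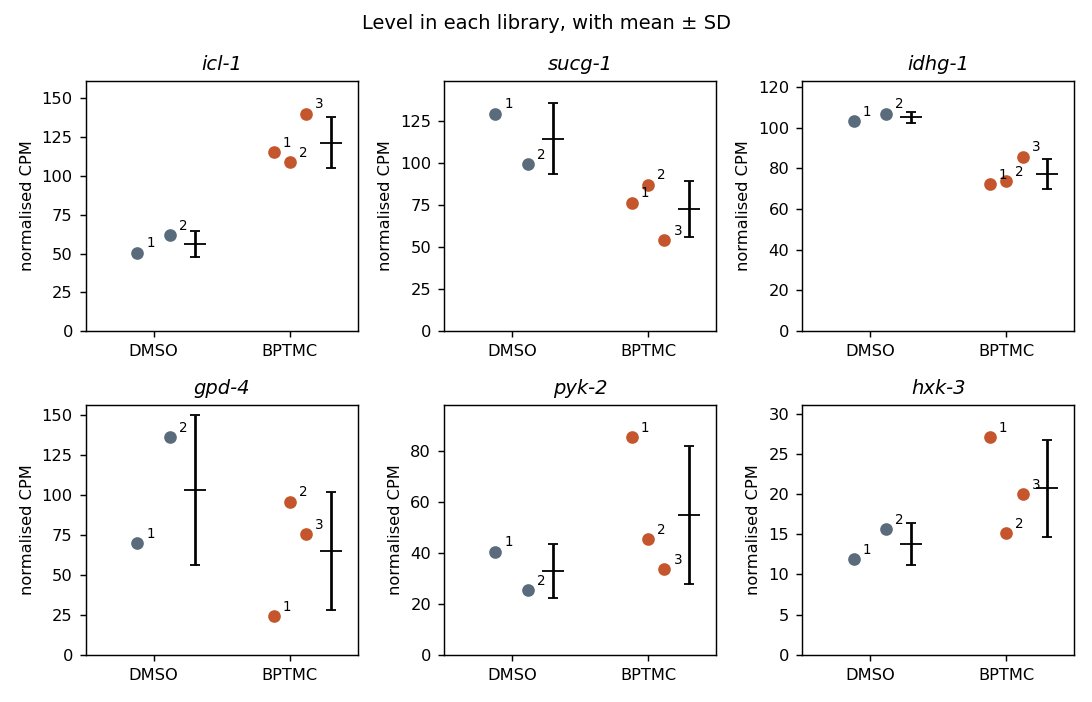
Normalised CPM of 6 genes in each library, with the replicate number beside each point and the mean ± SD beside each group; every axis starts at 0. The BPTMC points lie above the DMSO points for icl-1 and below them for sucg-1 and idhg-1, whereas the groups overlap for gpd-4, pyk-2 and hxk-3.

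Isocitrate is the branch point at which isocitrate lyase and the isocitrate dehydrogenases compete. Of the latter, idha-1, idhb-1, idhg-1 and idhg-2 encode subunits of the NAD-dependent enzyme of the TCA cycle, and idh-2 encodes the mitochondrial NADP-dependent enzyme. idhg-1 stood at 103 and 107 CPM with DMSO against 72.2, 73.6 and 85.7 CPM with BPTMC. idha-1 stood at 100.4 and 103 CPM with DMSO against 95.0, 80.3 and 74.0 CPM with BPTMC. For both genes every BPTMC library lay below both DMSO libraries, but the differences were small against their error: the log2 fold change was -0.44 ± 0.34 for idhg-1 and -0.29 ± 0.34 for idha-1 (edgeR adjusted p = 0.834 for each). The exons of idhg-1 and idha-1 overlap sel-5 and F43G9.13 on the opposite strand, and the strand setting of the counting is not given in the sources used here. idhb-1 (20.5 and 25.7 CPM against 28.7, 26.1 and 21.1 CPM) and idh-2 (25.8 and 25.1 CPM against 30.2, 17.3 and 23.0 CPM) overlapped between the groups. So did idhg-2, another gene for the gamma subunit, which stood at 10.3 and 6.77 CPM with DMSO against 13.2, 11.4 and 4.17 CPM with BPTMC.

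Ratios within a library do not depend on its scaling. The ratio of icl-1 to idhg-1 was 0.489 and 0.581 in DMSO and 1.596, 1.48 and 1.64 in BPTMC. The ratio of icl-1 to idha-1 was 0.502 and 0.603 in DMSO and 1.21, 1.36 and 1.89 in BPTMC. In both cases the groups lay apart, by 1.56 log2 units for idhg-1 and by 1.41 for idha-1. Taken against each of the other 38 members, icl-1 gave a ratio that was higher in every BPTMC library than in both DMSO libraries for 35, or 92.1%, beside 61.7% of 13760 tested genes with reads in all libraries. These and the ratios between isozymes were chosen after the values were seen and are given without a test.

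**Figure D3:**
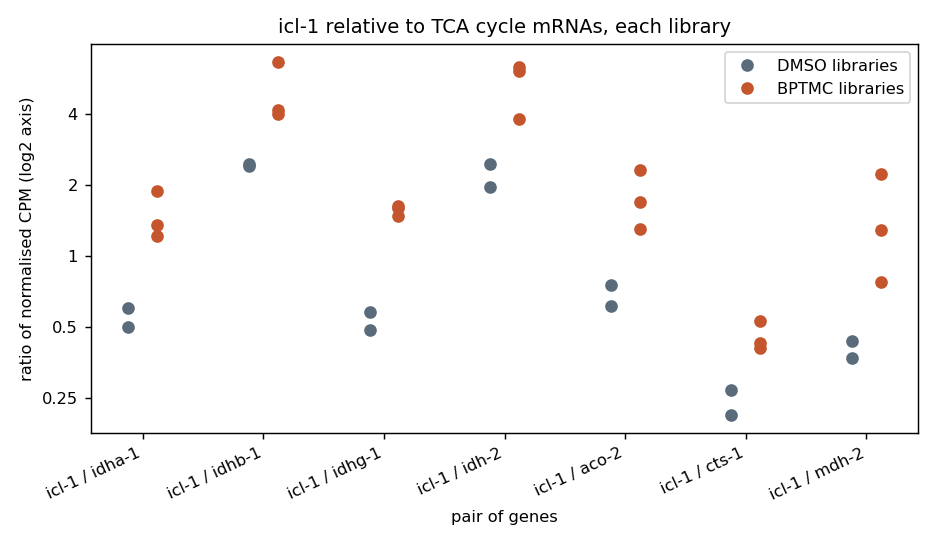
Ratio of the normalised CPM of icl-1 to that of 7 TCA cycle genes, 1 point per library, on a log2 axis; grey points are the 2 DMSO libraries and orange points the 3 BPTMC libraries. For all 7 denominators the BPTMC points lie above the DMSO points, with the tightest BPTMC points over idhg-1 (1.48 to 1.64).

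Of the 17 TCA cycle genes, 5 had a log2 fold change above 0 and 12 below, with a median of -0.22 and values from -0.66 to 0.19. None passed edgeR, DESeq2 or limma-voom over all genes, and 0 had an unadjusted edgeR p under 0.05. The gene with the smallest p was sucg-1, the GTP-specific beta subunit of succinyl-CoA ligase, which makes succinate. It stood at 129.6 and 99.6 CPM with DMSO against 76.4, 87.2 and 54.3 CPM with BPTMC. The groups did not overlap, with BPTMC replicate 3 lowest, and the log2 fold change was -0.66 ± 0.37 (edgeR unadjusted p = 0.113, adjusted p = 0.775). sucl-2, an alpha subunit of the same enzyme, stood at 86.9 and 93.9 CPM with DMSO against 44.9, 84.9 and 58.9 CPM with BPTMC. Its groups did not overlap either (log2 fold change -0.52 ± 0.39, edgeR adjusted p = 0.834), although BPTMC replicate 2 came close to DMSO. sucl-2 overlaps F23H11.2 on the opposite strand. The groups overlapped for the other subunits: sucl-1, also an alpha subunit, had a log2 fold change of 0.02 ± 0.37, and suca-1, the ATP-specific beta subunit, of 0.09 ± 0.43. sucg-1, sucl-2, idhg-1 and idha-1 were the 4 members with all BPTMC libraries below DMSO. Over all tested genes 9.96% were separated in that direction and 13.4% in the other, in which icl-1 was the 1 member, so that the 4 below were near the background and the 1 above was under it.

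In 16 of the 17 TCA cycle genes, all but idhg-1, the fold range within a group was wider than the fold between the groups. cts-1, citrate synthase, stood at 186 and 292 CPM with DMSO against 218, 254 and 344 CPM with BPTMC. aco-2, mitochondrial aconitase, stood at 82.0 CPM in both DMSO libraries and at 68.1, 83.3 and 60.3 CPM with BPTMC. mdh-2, mitochondrial malate dehydrogenase, which closes the cycle, stood at 116 and 168 CPM with DMSO against 51.9, 140.5 and 109 CPM with BPTMC. In all 3 the groups overlapped, and BPTMC replicate 1 was the lowest library for mdh-2. ogdh-1 and dlst-1 belong to the 2-oxoglutarate dehydrogenase complex. ogdh-2, which encodes a relative of its first subunit, stood at 93.1 and 224 CPM with DMSO against 51.7, 129 and 187 CPM with BPTMC, a 2.41-fold range in DMSO and a 3.62-fold range in BPTMC around a log2 fold change of -0.37 ± 0.58. ogdh-1, the first subunit itself, ranged 1.76-fold in DMSO and 1.58-fold in BPTMC (log2 fold change -0.08 ± 0.40). dlst-1, the second subunit, stood at 173 and 279 CPM with DMSO against 109, 162 and 222 CPM with BPTMC. dld-1, the dehydrogenase that this complex shares with pyruvate dehydrogenase, had a log2 fold change of -0.19 ± 0.39, and fum-1, fumarase, of -0.22 ± 0.46.

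The 3 pyruvate dehydrogenase genes had log2 fold changes below 0 and overlapping groups. dlat-1, the acetyltransferase core of the complex, had the smallest p and stood at 67.2 and 103 CPM with DMSO against 42.7, 77.5 and 82.1 CPM with BPTMC (log2 fold change -0.33 ± 0.42, edgeR adjusted p = 0.834). pdha-1 and pdhb-1, the subunits of the first enzyme, had log2 fold changes of -0.23 ± 0.34 and -0.14 ± 0.47. pdha-1 was the steadier gene, with a 1.21-fold range in DMSO and a 1.27-fold range in BPTMC.

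**Figure D4:**
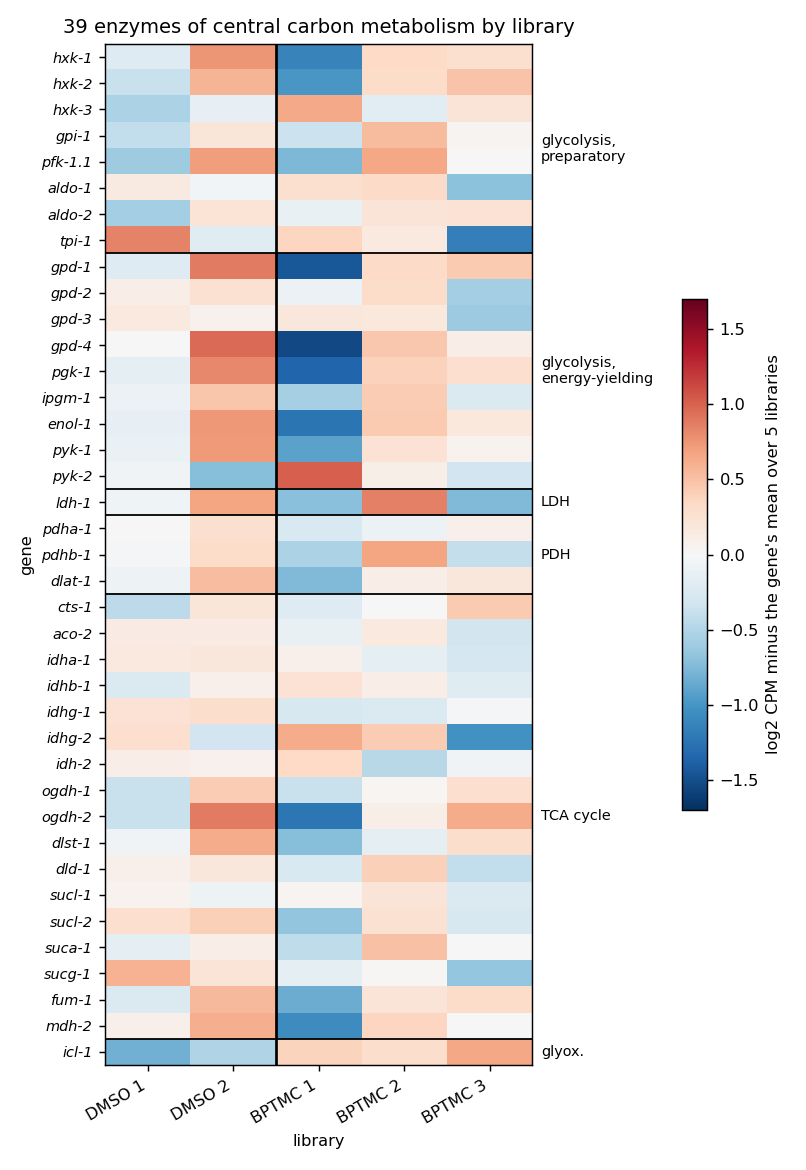
Heat map of the 39 genes (rows, by step) in the 5 libraries (columns), coloured by log2 CPM minus the gene's mean over the libraries; LDH is lactate dehydrogenase, PDH pyruvate dehydrogenase and glyox. the glyoxylate cycle. Most glycolytic rows are red in DMSO replicate 2 and blue in BPTMC replicate 1. The reverse holds for pyk-2, hxk-3, tpi-1 and, more faintly, aldo-1. The icl-1 row changes colour at the line between the groups.

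In all 17 genes of glycolysis the DMSO and BPTMC libraries overlapped. The log2 fold change was below 0 in 13 and above 0 in 4, with a median of -0.26. Without a term for the replicate number, none passed edgeR, DESeq2 or limma-voom over all genes, and 0 had an unadjusted edgeR p under 0.05. The median was 0.11 without DMSO replicate 2 (all tested genes 0.12), 0.06 without BPTMC replicate 1 (0.02) and 0.45 without both (0.08). For all 17 the fold range within a group was wider than the fold between the groups, as it was for 37 of the 39 members and for 88.1% of all tested genes. The mean log2 level of the 17 genes around each gene's mean was -0.13 and 0.37 for the DMSO libraries and -0.47, 0.31 and -0.07 for the BPTMC libraries. The libraries with the lowest sperm gene levels, DMSO replicate 2 and BPTMC replicate 2, thus had the highest glycolytic levels, and BPTMC replicate 1 had the highest sperm and the lowest glycolytic level; the part of such tissue differences in the result was not tested.

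Among all 39 genes, 19 had their highest level in DMSO replicate 2, or 48.7% beside 25.9% of all tested genes. BPTMC replicate 1 was the lowest library for 19, or 48.7% beside 29.9% of all tested genes. Both DMSO replicate 2 above replicate 1 and BPTMC replicate 1 lowest in its group held for 23, or 59.0% beside 30.8%.

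In the preparatory steps, which consume ATP, hxk-3 had the smallest p. The hexokinase genes hxk-1, hxk-2 and hxk-3 encode the enzyme that traps glucose in the cell. hxk-3 stood at 11.9 and 15.7 CPM with DMSO against 27.0, 15.1 and 20.0 CPM with BPTMC. BPTMC replicate 2 lay just below DMSO replicate 2, so the groups overlapped (log2 fold change 0.59 ± 0.42, edgeR adjusted p = 0.834). hxk-1 stood at 64.2 and 126 CPM with DMSO against 34.1, 94.6 and 90.5 CPM with BPTMC. hxk-2 stood at 22.7 and 43.9 CPM with DMSO against 14.8, 36.5 and 41.3 CPM with BPTMC. These latter genes moved together from library to library, with a ratio of hxk-2 to hxk-1 between 0.347 and 0.457, with every BPTMC library above both DMSO libraries, whereas hxk-3 to hxk-1 ran from 0.124 in DMSO replicate 2 to 0.793 in BPTMC replicate 1.

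pfk-1.1, phosphofructokinase, which commits sugar to glycolysis, stood at 9.05 and 22.5 CPM with DMSO against 8.12, 21.7 and 13.7 CPM with BPTMC. gpi-1, glucose-6-phosphate isomerase, had a log2 fold change of 0.20 ± 0.42. Of the aldolase genes, aldo-2 stood at 193 and 339.8 CPM with DMSO against 263, 337 and 340.0 CPM with BPTMC, and aldo-1 at 28.9 and 25.1 CPM with DMSO against 31.3, 32.6 and 15.97 CPM with BPTMC. The aldolase genes did not follow one another: their ratio ranged 3.18-fold over the libraries, and the groups overlapped for each. aldo-2 overlaps F01F1.3 on the opposite strand. tpi-1, triosephosphate isomerase, stood at 26.8 and 13.0 CPM with DMSO against 19.2, 16.8 and 6.66 CPM with BPTMC, and BPTMC replicate 3 was its lowest library.

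In the energy-yielding steps the median log2 fold change was -0.40, with 8 of 9 genes below 0 and pyk-2 above, while leaving out DMSO replicate 2 gave 0.04 (all tested genes 0.12) and leaving out BPTMC replicate 1 gave 0.0065 (0.02). Leaving out both gave 0.27 (0.08). The 4 gpd genes encode glyceraldehyde-3-phosphate dehydrogenase (GAPDH). gpd-2 and gpd-3 lie 101 bases apart on the same strand of chromosome X, downstream of mai-1 in an operon, and gpd-1 and gpd-4 lie on chromosome II. The members of each pair are near-identical copies, so the counts of a pair may share or lose reads. gpd-1 stood at 112 and 242 CPM with DMSO against 48.1, 163 and 178 CPM with BPTMC. gpd-4 stood at 69.6 and 136 CPM with DMSO against 24.1, 95.6 and 75.3 CPM with BPTMC. Both were highest in DMSO replicate 2 and lowest in BPTMC replicate 1, with fold ranges in BPTMC of 3.69 for gpd-1 and 3.97 for gpd-4. The log2 fold changes were -0.45 ± 0.58 for gpd-1 and -0.66 ± 0.58 for gpd-4 (edgeR adjusted p = 0.834 for each), and without DMSO replicate 2 and BPTMC replicate 1 they were 0.60 and 0.29. gpd-2 stood at 186 and 207 CPM with DMSO against 161, 214 and 116 CPM with BPTMC. gpd-3 stood at 328 and 306 CPM with DMSO against 334, 328 and 190.3 CPM with BPTMC. This X-linked pair was lowest in BPTMC replicate 3, with log2 fold changes of -0.26 ± 0.38 for gpd-2 and -0.16 ± 0.38 for gpd-3. gpd-2 overlaps mai-1 on the same strand. Within a pair the ratio held: gpd-1 to gpd-4 ranged 1.46-fold and gpd-3 to gpd-2 1.40-fold over the 5 libraries, against 5.11-fold for gpd-1 to gpd-2.

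**Figure D5:**
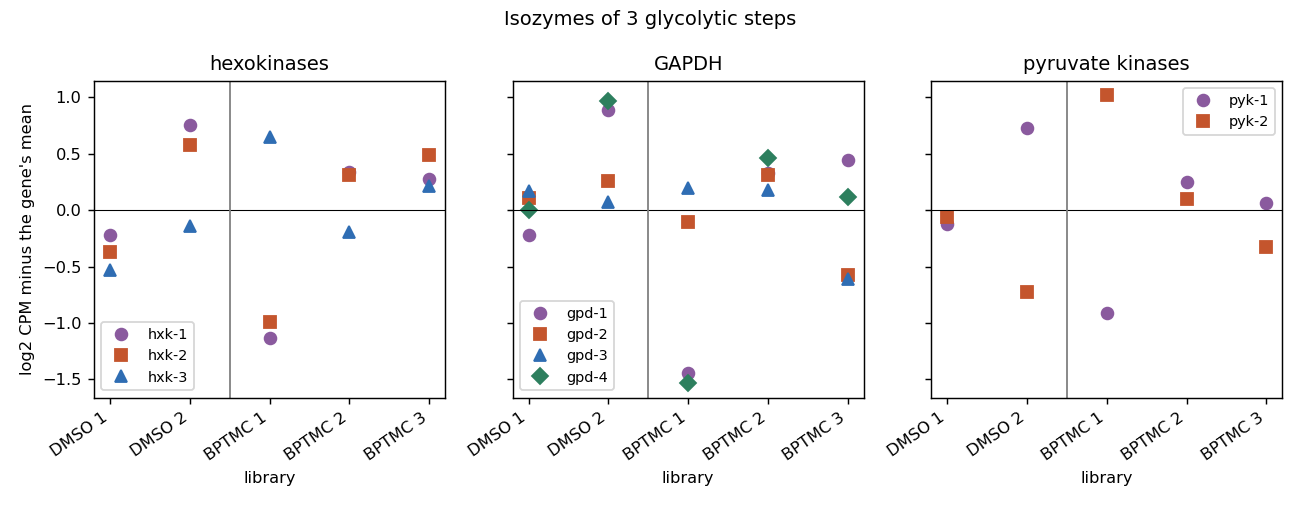
Log2 CPM minus the gene's mean over 5 libraries for the hexokinase, GAPDH and pyruvate kinase genes, 1 symbol per gene and library, with a vertical line between the DMSO and BPTMC libraries. In BPTMC replicate 1 hxk-3 and pyk-2 lie above 0 where hxk-1, hxk-2 and pyk-1 lie below, and gpd-1 and gpd-4 lie apart from gpd-2 and gpd-3.

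pyk-1 and pyk-2 encode pyruvate kinase, the last step of glycolysis, and had unlike profiles. pyk-2 stood at 40.5 and 25.5 CPM with DMSO against 85.5, 45.4 and 33.7 CPM with BPTMC. pyk-1 stood at 91.5 and 164 CPM with DMSO against 52.8, 118 and 104 CPM with BPTMC. The ratio of pyk-2 to pyk-1 was 1.62 in BPTMC replicate 1 and between 0.155 and 0.443 in the other libraries, which held both groups. The log2 fold changes were 0.73 ± 0.49 for pyk-2 (edgeR unadjusted p = 0.174, adjusted p = 0.827) and -0.48 ± 0.46 for pyk-1 (adjusted p = 0.834). Without DMSO replicate 2 and BPTMC replicate 1 they were -0.04 for pyk-2 and 0.27 for pyk-1. pyk-2 overlaps ZK593.11 on the opposite strand.

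pgk-1, phosphoglycerate kinase, which makes the first ATP of the pathway, stood at 63.7 and 125 CPM with DMSO against 27.8, 92.9 and 86.5 CPM with BPTMC. enol-1, enolase, stood at 145 and 266 CPM with DMSO against 67.5, 217 and 181 CPM with BPTMC. Both had the profile of gpd-1, highest in DMSO replicate 2 and lowest in BPTMC replicate 1, with log2 fold changes of -0.45 ± 0.55 for pgk-1 and -0.40 ± 0.53 for enol-1. ipgm-1, the cofactor-independent phosphoglycerate mutase, had a log2 fold change of -0.28 ± 0.43. ldh-1, lactate dehydrogenase, which regenerates NAD when pyruvate is not oxidised, stood at 21.1 and 35.3 CPM with DMSO against 13.6, 40.1 and 13.2 CPM with BPTMC. Its groups overlapped fully, with a log2 fold change of -0.34 ± 0.57 (edgeR adjusted p = 0.844).

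Neighbouring pathways were counted from 9 lists with 55 genes in the tables. By edgeR 0 of the 55 passed over all genes. Before adjustment 4 of the 55 had a p under 0.05, each with a higher level in BPTMC. This was near the share of all tested genes, 7.40%, of which 997 were higher and 57 lower. The median log2 fold change of the 55 was -0.04. Gluconeogenesis and anaplerosis, which run the pathway towards sugar and refill the cycle, gave 0 of 6 at an unadjusted p under 0.05 and a median of -0.12. In that list pck-2, a phosphoenolpyruvate carboxykinase, stood at 1141 and 1194 CPM with DMSO against 958, 1066 and 989 CPM with BPTMC. Its groups did not overlap, as in 9.96% of all tested genes in that direction, with a log2 fold change of -0.22 ± 0.33. pyc-1, of the same list, had a smaller edgeR p than pck-2 and overlapping groups (log2 fold change -0.45 ± 0.44). pck-3, a carboxykinase gene of the same list, stood at 0.179 and 0.188 CPM with DMSO against 0.684, 0.204 and 0.508 CPM with BPTMC. Here every BPTMC library lay above DMSO, as in 13.4% of all tested genes, but at levels of few reads. BPTMC replicate 2 did so only through the scaling of libraries (log2 fold change 1.32 ± 0.97, edgeR adjusted p = 0.834). The cytosolic partners of TCA enzymes had a median of 0.32 over 5 genes. Of these aco-1, the cytosolic aconitase, stood at 18.3 and 29.3 CPM with DMSO against 33.9, 33.9 and 31.8 CPM with BPTMC (log2 fold change 0.48 ± 0.39). The genes of pyruvate entry into mitochondria and its control had a median of -0.34 over 4, the 4 succinate dehydrogenase genes of -0.12 and the pentose phosphate pathway of -0.21 over 5, each with 0 genes at an unadjusted p under 0.05. The other paralogs of glycolytic enzymes had a median of -0.04 over 3. Of these pfk-1.2, a phosphofructokinase gene, stood at 0.134 and 0 CPM with DMSO against 0.636, 0 and 0.508 CPM with BPTMC, so its groups overlapped at 0.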

How the data were processed

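Per the labels' protocols, libraries were made with the Lexogen QuantSeq kit, a 3' tag method, from 500 ng of total RNA. The deposited tables hold raw counts, 1 table per sample and 1 row per gene symbol. The submitters' processing notes name Bowtie2, bedtools and the build WBcel235; for versions, gene annotation and strandedness of counting, nothing was given in the sources used here. The groups (DMSO n = 2, BPTMC n = 3) come from the sample titles. The test was edgeR's quasi-likelihood F test (edgeR 4.0.16, R 4.3.3) after TMM normalisation and filterByExpr (minimum count 10), with Benjamini-Hochberg adjustment and a threshold of 0.05. An approximate SE was taken as |log2 fold change| over the root of F. List levels and principal components are based on log2 CPM (prior count 2). Scripts were tested on simulated data with increases only, so the calling of decreases was not tried. The smallest increases made, near that of icl-1 and larger than the changes of the other members, were not called. Alternatives were DESeq2 1.42.0, limma-voom (limma 3.58.1), other scalings, filters and dispersions, single libraries left out and a replicate block. The members and lists were chosen with earlier results of these data known. Every member is described; values per library are given for those the results turn on. Coordinates and exon overlaps are from Ensembl release 115.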

Additional observations from a re-analysis of the deposited data

How the results depend on the processing

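As reported, 15 genes of all tested were called higher and 0 lower, and 0 of the 39 members in either direction. The number higher was 2 with total-count scaling, 65 (and 2 lower) with no filter on low counts, 3 with a filter at 5 CPM, 238 (and 3 lower) by DESeq2, 1 by limma-voom, 3 with legacy dispersions, 4 without rRNA genes and 2 at an adjusted p under 0.01. It ran from 0 to 43 when libraries were left out (0 without BPTMC replicate 3, 43 without BPTMC replicate 1), and was 5 without both DMSO replicate 2 and BPTMC replicate 1, a setting chosen after seeing the data. None of these settings called a member, and icl-1 was the 1 member at an unadjusted p under 0.05 in each of them except without DMSO replicate 1 or 2, where the count was 0 (range 0 to 1).

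The groups share replicate numbers 1 and 2, and the labels do not say what a number marks. Deviations from the group means of same-numbered libraries had correlations of 0.67 for number 1 and 0.33 for number 2, over genes. With 2 DMSO libraries, their deviations are equal and opposite for each gene. The correlations are therefore not independent of each other and cannot show that the numbers mark pairs. With the replicate block, which leaves 1 residual degree of freedom, edgeR called 1147 of the 14238 tested genes higher and 599 lower. Of the 39 members it called 2 higher (icl-1 at 1.00, adjusted p = 0.0251, and pyk-2 at 0.95, 0.0445). It called 2 lower (gpd-4 at -1.02, adjusted p = 0.0265, and gpd-1 at -0.89, 0.0458). The share of members called was thus under that of all tested genes for higher levels and near it for lower levels. At an unadjusted p under 0.05 the block gave 2 members higher and 9 lower. The share of the 14238 tested genes at that threshold was not counted for this fit. Whether the member counts at the unadjusted threshold exceed the background therefore cannot be judged. The cause of the larger number of calls with the block was not tested.

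Members whose log2 fold change changed sign when libraries were left out had these ranges: hxk-1 -0.80 to 0.52, hxk-2 -0.52 to 0.77, gpi-1 -0.089 to 0.72, pfk-1.1 -0.64 to 0.97, aldo-1 -0.26 to 0.33, aldo-2 -0.13 to 0.80, tpi-1 -1.19 to 0.12, gpd-1 -0.90 to 0.60, gpd-2 -0.44 to 0.0029, gpd-3 -0.34 to 0.15, gpd-4 -1.07 to 0.29, pgk-1 -0.86 to 0.49, ipgm-1 -0.59 to 0.22, enol-1 -0.78 to 0.45, pyk-1 -0.85 to 0.27, pyk-2 -0.042 to 1.11, ldh-1 -1.03 to 0.33, pdhb-1 -0.58 to 0.26, dlat-1 -0.62 to 0.24, cts-1 -0.11 to 0.68, idhb-1 -0.036 to 0.34, idhg-2 -0.41 to 0.62, idh-2 -0.36 to 0.12, ogdh-1 -0.44 to 0.54, ogdh-2 -0.88 to 0.76, dlst-1 -0.77 to 0.15, dld-1 -0.43 to 0.030, sucl-1 -0.065 to 0.22, suca-1 -0.16 to 0.43, fum-1 -0.57 to 0.51 and mdh-2 -0.81 to 0.10. Other sign changes were to 0.0080 for hxk-2, 0.11 for aldo-1, 0.029 for idh-2 and 0.050 for ogdh-1 with a filter at 5 CPM, 0.020 for aldo-1 without rRNA genes, 0.24 for aldo-1 and 0.065 for gpd-3 with the replicate block, and -0.030 for sucl-1 with RLE scaling or DESeq2. Many ends of the ranges with libraries left out come from the setting without DMSO replicate 2 and BPTMC replicate 1, chosen after seeing the data. For gpd-4, pyk-2, dlst-1 and mdh-2 the sign changed only in that setting. Where 1 DMSO library was left, it was assumed to vary like the others.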

Other observations

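Genes of sugar storage and of the control of carbon metabolism, outside the enzymes above, included the 4 neighbouring genes at an unadjusted p under 0.05. Their number, 4 of 55, was near the share of all tested genes at that threshold, 7.40%. Of 12 genes of trehalose and glycogen metabolism, 2 had an unadjusted p under 0.05, both with higher levels in BPTMC, and the median log2 fold change was 0.03. tre-5, a trehalase gene, stood at 0.582 and 0.0940 CPM with DMSO against 8.95, 0.817 and 10.02 CPM with BPTMC, so that replicate 2, the BPTMC library with the lowest sperm gene level, lay near DMSO (log2 fold change 4.25 ± 1.18, edgeR adjusted p = 0.403). gyg-1, a glycogenin gene, which primes glycogen synthesis, stood at 6.85 and 7.66 CPM with DMSO against 17.5, 14.7 and 16.9 CPM with BPTMC. All 3 BPTMC libraries lay above DMSO for gyg-1, with a log2 fold change of 1.17 ± 0.40 (edgeR unadjusted p = 0.0176, adjusted p = 0.562).

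Of 9 regulators, 2 had an unadjusted p under 0.05, beside 7.40% of all tested genes. Both had higher levels in BPTMC, and the median was 0.29. crtc-1, a CREB-regulated transcription coactivator, stood at 2.37 and 3.06 CPM with DMSO against 14.4, 4.70 and 9.46 CPM with BPTMC (log2 fold change 1.81 ± 0.58, edgeR adjusted p = 0.521). nhr-80, a nuclear hormone receptor, stood at 3.67 and 4.79 CPM with DMSO against 11.05, 5.56 and 14.4 CPM with BPTMC (log2 fold change 1.29 ± 0.53, edgeR adjusted p = 0.643). In both genes BPTMC replicate 2, with the low sperm gene level, lay closest to DMSO; its part in these values was not tested. Propionate and glyoxylate-linked genes gave 0 of 7 at an unadjusted p under 0.05 and a median of 0.01.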
